A study of Homo sapiens with 4 samples.

Results

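The accessible chromatin of Huh7 cells that carried both an ARID1A knockdown and rapamycin was compared with that of untreated control cells. Huh7 is a human line grown from a liver cancer. A control peak that shared no base with any peak of the knockdown-plus-rapamycin list was called lost, and a peak of that list that shared no base with any control peak was called gained. By this rule 15338 of 52192 control peaks were lost and 7899 of 44760 peaks were gained, which makes 23237 changed peaks beside the 69838 merged regions that the 4 lists of the series cover. The 4 lists came from shControl cells given DMSO (52192 peaks), shControl cells given 100 nM rapamycin for 6 h (49783 peaks), shARID1A cells given DMSO (45700 peaks) and shARID1A cells given 100 nM rapamycin for 6 h (44760 peaks). The sh prefix marks cells that carry a short hairpin RNA, a control hairpin or one against ARID1A, and all 4 groups share the Huh7 background and the hairpin step. The labels do not say whether a line is 1 clone or a pool. Each group is 1 library of 50000 cells, so no difference below has a replicate check, no p-value is given, and the intervals (exact Clopper-Pearson, 95%) cover counting error only.

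ARID1A binds DNA and helps target BAF, a SWI/SNF complex that uses ATP to slide and evict nucleosomes and keeps many enhancers open. Rapamycin binds FKBP12 and blocks mTORC1, the kinase complex that couples nutrients and growth factors to protein, lipid and nucleotide synthesis and holds back autophagy. ATAC-seq inserts adapters with a transposase where DNA is not wrapped on nucleosomes, so a peak marks an open promoter, enhancer or insulator.

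Promoter sequences are shown first, because CpG content differed between lost promoters and those that stayed open. The strongest lost and gained promoter peaks with an entry in the RefSeq promoter table lay at CpG-rich starts, and those of the nuclear receptor genes NR1H4 and NR1I2 at CpG-poor ones. Each line gives the 250 bases before a start (RefSeq, GRCh38.p14), 5′ to 3′ on the gene's strand, with every CpG in capitals. The windows are ZNF286A at chr17:15699502-15699751 (plus strand), CENPB at chr20:3786741-3786990 (minus), LLGL1 at chr17:18225385-18225634 (plus), MLLT1 at chr19:6279976-6280225 (minus), NR1H4 at chr12:100503110-100503359 (plus) and NR1I2 at chr3:119782460-119782709 (plus).
ZNF286A: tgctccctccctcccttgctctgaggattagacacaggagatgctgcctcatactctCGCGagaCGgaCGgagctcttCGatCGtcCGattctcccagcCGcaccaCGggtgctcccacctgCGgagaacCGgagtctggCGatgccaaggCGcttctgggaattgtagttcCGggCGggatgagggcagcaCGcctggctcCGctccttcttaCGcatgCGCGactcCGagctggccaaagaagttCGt
CENPB: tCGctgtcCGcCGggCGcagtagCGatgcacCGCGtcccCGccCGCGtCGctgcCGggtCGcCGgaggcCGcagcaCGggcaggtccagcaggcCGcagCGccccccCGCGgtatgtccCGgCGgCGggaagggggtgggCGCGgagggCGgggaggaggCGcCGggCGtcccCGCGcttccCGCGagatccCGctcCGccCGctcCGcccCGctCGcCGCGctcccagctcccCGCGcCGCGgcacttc
LLGL1: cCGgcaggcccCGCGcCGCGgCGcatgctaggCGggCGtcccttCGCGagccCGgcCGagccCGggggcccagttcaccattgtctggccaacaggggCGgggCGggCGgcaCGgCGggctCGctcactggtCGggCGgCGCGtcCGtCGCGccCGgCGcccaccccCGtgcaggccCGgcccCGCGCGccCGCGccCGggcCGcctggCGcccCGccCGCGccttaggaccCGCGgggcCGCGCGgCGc
MLLT1: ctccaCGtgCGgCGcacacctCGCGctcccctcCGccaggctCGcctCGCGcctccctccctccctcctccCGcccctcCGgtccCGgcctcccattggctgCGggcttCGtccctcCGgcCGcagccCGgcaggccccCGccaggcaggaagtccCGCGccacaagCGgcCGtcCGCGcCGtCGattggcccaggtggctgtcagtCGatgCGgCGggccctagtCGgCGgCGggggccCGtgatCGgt
NR1H4: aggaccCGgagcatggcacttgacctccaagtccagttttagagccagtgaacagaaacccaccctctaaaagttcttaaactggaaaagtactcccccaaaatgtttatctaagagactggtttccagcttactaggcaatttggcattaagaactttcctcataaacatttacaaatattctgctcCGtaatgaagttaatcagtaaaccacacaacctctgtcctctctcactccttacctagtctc
NR1I2: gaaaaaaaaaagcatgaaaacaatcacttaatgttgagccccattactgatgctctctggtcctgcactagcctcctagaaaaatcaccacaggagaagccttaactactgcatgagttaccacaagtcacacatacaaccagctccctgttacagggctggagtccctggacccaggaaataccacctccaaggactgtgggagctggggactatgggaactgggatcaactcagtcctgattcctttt
The full 300-base windows, which reach 50 bases past the start, held 24 CpGs at ZNF286A, 55 at CENPB, 56 at LLGL1 and 43 at MLLT1. They held 2 CpGs at NR1H4 and 0 at this start of NR1I2. ZNF286A, a zinc finger gene, had a peak in the shControl DMSO list alone. CENPB, which encodes a centromere-binding protein, had a peak in both shControl lists and in neither shARID1A list. LLGL1, a cell polarity gene, had one in every list but the combined one. MLLT1, which encodes the transcription elongation factor ENL, had one in every list but that of the untreated control.

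The other motif shown is TGANTCA, the letters that AP-1 (FOS and JUN family dimers) binds, searched on both strands. It is shown for the first and the third by peak rank of the lost promoter windows that hold it before the start, 1 CpG-poor and 1 not: VEGFD at chrX:15384414-15384663 (minus strand) and INO80B-WBP1 at chr2:74454773-74455022 (plus), with the motif in capitals.
VEGFD: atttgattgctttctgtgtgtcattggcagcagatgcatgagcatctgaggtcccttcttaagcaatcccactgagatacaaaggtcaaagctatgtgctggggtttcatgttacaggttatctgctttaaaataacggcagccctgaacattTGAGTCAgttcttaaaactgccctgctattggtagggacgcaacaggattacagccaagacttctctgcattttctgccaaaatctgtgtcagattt
INO80B-WBP1: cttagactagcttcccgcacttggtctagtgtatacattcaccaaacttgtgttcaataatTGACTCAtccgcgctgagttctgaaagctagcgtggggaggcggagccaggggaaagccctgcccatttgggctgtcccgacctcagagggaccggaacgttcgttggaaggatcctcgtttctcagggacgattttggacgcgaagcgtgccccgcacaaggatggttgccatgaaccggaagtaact
VEGFD encodes a growth factor for lymphatic vessels, and INO80B-WBP1 is a readthrough transcript that starts with INO80B, a subunit of another chromatin remodeller. The control peak at VEGFD ranked 21430 and that at INO80B-WBP1 ranked 17334 of 52192 by deposited score. Each had a peak in both single-change lists and in the control list, and none in the combined list.

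Over the whole lists, 29.4% of control peaks were lost (interval 29.0 to 29.8%) and 17.6% of the combined list's peaks were gained (17.3 to 18.0%). The overlapping peaks numbered 36854 in the control list and 36861 in the combined one, so nearly all of the excess of lost over gained peaks is the difference in list length. When each list was cut to its 44760 top-ranked peaks, 9629 were lost and 9564 gained, counts that equal lengths make nearly alike. Peaks are compared below by rank on the deposited score within 1 list, with rank 1 the strongest, since the score's unit is not stated. Strong peaks were seldom lost. Of the strongest 10% of control peaks 2 of 5220 were lost, and of the weakest 10%, 4162 of 5219 (79.7%). The same held for gains, with 1 of 4476 in the strongest 10% and 2673 of 4476 (59.7%) in the weakest. Lost peaks were also narrow, with a median width of 452 bp against 808 bp for control peaks that were kept. Gained peaks had a median of 424 bp against 783 bp for kept ones. Among peaks over 2 kb wide, 1 of 546 was lost and 0 of 512 gained, and the count of 0 allows a share of up to 0.718% (upper limit of the exact interval). Read depth and the share of reads in peaks are unknown here, and their part in the loss of weak peaks was not tested.

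Promoter peaks, those within 1 kb of a transcription start (TSS) in the deposited annotation, were kept far more often than distal peaks. Of 13050 promoter peaks of the control list 908 were lost (6.96%), against 14430 of 39142 distal peaks (36.9%). Of the combined list's promoter peaks 753 of 12823 were gained (5.87%), against 7146 of 31937 distal peaks (22.4%). Promoter peaks rank higher, so the distal share was also computed with each score decile weighted as among promoters. The weighted distal share lost was 13.4%, still above the promoters' 6.96%. For gains it was 6.69%, beside 5.87% for promoters. Distal peaks were therefore lost more often than promoter peaks of the same score class. The gained shares lay closer together, although the distal share was above the promoter share with separate intervals in deciles 4 (3.72% against 1.43%), 5 (8.33% against 4.66%) and 6 (14.2% against 10.2%). In decile 7 of the control list, 41.5% of distal peaks (40.1 to 42.9%) and 18.4% of promoter peaks (15.3 to 21.8%) were lost. In decile 7 of the combined list, 20.2% of distal peaks (18.9 to 21.5%) and 16.4% of promoter peaks (13.4 to 19.8%) were gained. The single changes, which share the control library with the combined one, gave weighted distal and promoter losses of 12.2% and 5.82% for knockdown alone and 8.99% and 5.81% for rapamycin alone. Their gains were 6.77% and 6.56% for knockdown alone and 7.03% and 5.72% for rapamycin alone.

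**Figure D1:**
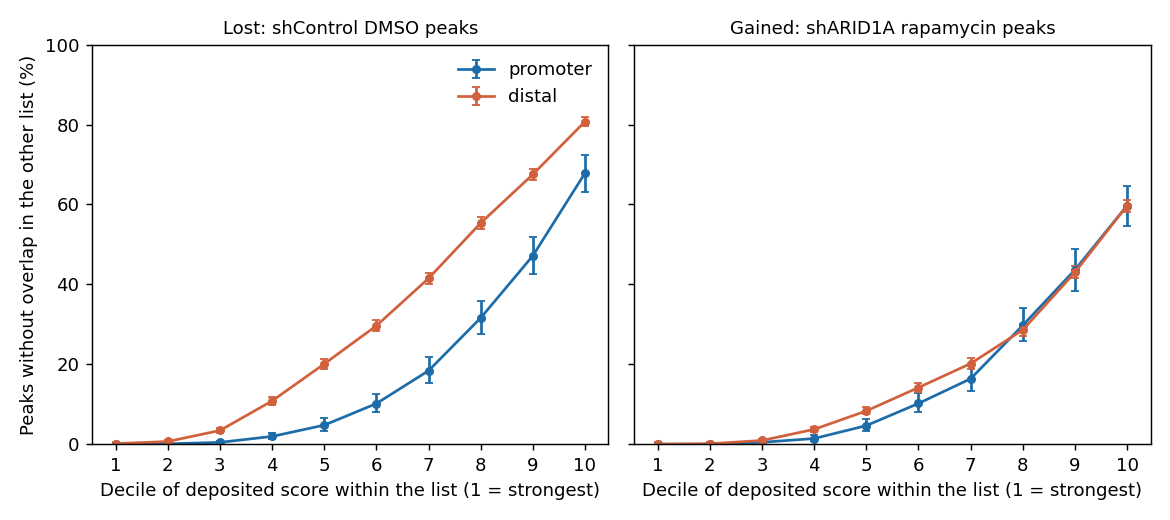
Share of peaks without overlap in the other list (y axis, %) by decile of the deposited score within the list (x axis, 1 = strongest), for promoter and distal peaks, with exact 95% intervals. Distal peaks lie above promoter peaks for losses (41.5% against 18.4% in decile 7), and the curves lie closer for gains (20.2% against 16.4%).

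By annotation, losses took 36.3% of intergenic peaks (5524 of 15210), 37.0% of intronic peaks (8061 of 21809), 32.0% of peaks at transcription ends (485 of 1514) and 17.8% of exonic peaks (543 of 3059). Gains took 23.0% of intergenic, 21.2% of intronic, 22.5% of transcription-end and 14.8% of exonic peaks. These annotation classes were not made with the 1 kb rule and include some peaks within 1 kb of a TSS. After the annotated promoters, exonic peaks had the lowest shares in both directions. The share lost went up with distance, from 32.0% at 1 to 5 kb from a TSS to 42.1% at 100 to 500 kb, but was 25.6% (10 of 39, interval 13.0 to 42.1%) over 500 kb. The share gained was 20.9% at 1 to 5 kb, 22.6% at 100 to 500 kb and 37.0% (17 of 46, 23.2 to 52.5%) over 500 kb.

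Chromosomes differed in their distal losses. Chromosome 19, the most gene-dense, had the lowest share lost, 311 of 1093 distal peaks (28.5%, interval 25.8 to 31.2%). Chromosomes X (330 of 810, 40.7%) and 13 (396 of 979, 40.4%) had the highest among chromosomes 1 to 22 and X. For gains on the same chromosomes, chromosome 20 led with 296 of 1060 (27.9%, 25.2 to 30.7%), followed by chromosome 22 with 183 of 690 (26.5%). Chromosome 18 had the lowest share gained, 121 of 663 (18.3%, 15.4 to 21.4%). The share over all distal peaks lay outside the intervals of chromosomes 4, 13, 17, 19, 21, 22 and X for losses, and of 2, 5, 18, 20, 22 and X for gains. Neighbouring peaks on a chromosome are not independent, and copy number was not measured here.

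**Figure D2:**
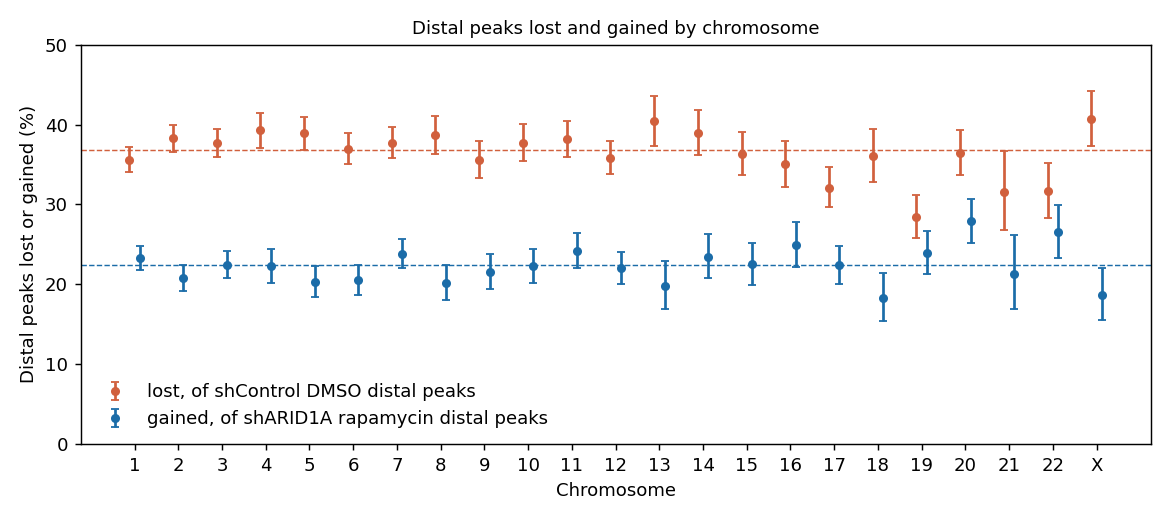
Share of distal peaks lost (of the control list) and gained (of the combined list) on chromosomes 1 to 22 and X (y axis, %) with exact 95% intervals. Dashed lines mark all distal peaks, 36.9% and 22.4%. Chromosome 19 lies lowest for losses at 28.5% and chromosome 20 highest for gains at 27.9%.

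Against the same control library, knockdown alone lost 14428 peaks (27.6% of all, 34.9% of distal) and gained 8079 (17.7%), and rapamycin alone lost 11341 (21.7% of all, 27.0% of distal) and gained 9209 (18.5%). Each peak lost with the combination was then looked up in the lists of the single changes. Of the 15338 lost peaks, 7158 (46.7%) were missing from both single-change lists as well. A further 3745 (24.4%) were missing from the knockdown-alone list and present with rapamycin alone, and 1449 (9.45%) the reverse. The remaining 2986 (19.5%, 18.8 to 20.1%) were present in both single-change lists and missing from the combined list. In all, 71.1% of lost peaks were missing with knockdown alone and 56.1% with rapamycin alone, against 9.56% and 7.42% of the kept control peaks. These shares rest on the same control library as the losses themselves, so a weak control peak enters all 3 comparisons at once. A comparison of shARID1A DMSO with shControl rapamycin at these peaks shares no library with the combined comparison. By it, lost peaks were found in the rapamycin-alone list and not in the knockdown list 3745 times, against 1449 times the other way round. For kept control peaks the direction was the same, with 2314 against 1523.

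Peak numbers run without a gap in the control and combined lists. They skip 6666 numbers (12.7%) in the knockdown-alone list and 1093 (2.15%) in the rapamycin-alone list, and a peak removed at a skipped number would read as missing. Among the 10220 lost peaks whose place in neither single-change list holds a skipped number, 4449 (43.5%) were missing from both, 2009 (19.7%) from knockdown alone, 1205 (11.8%) from rapamycin alone, and 2557 were present in both. The order of the classes changed there, since more peaks were missing from the combined list alone than from knockdown and the combination. The excess of knockdown-alone over rapamycin-alone absence went from 3745 against 1449 to 2009 against 1205. Among kept control peaks with no skipped number the order was the other way round, with 987 missing from knockdown alone and 1299 from rapamycin alone.

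Read the other way, the single changes sorted the control peaks by how often they were lost. Control peaks missing from both single-change lists were lost with the combination in 85.5% of cases (7158 of 8369). Those missing with knockdown alone were lost in 61.8% (3745 of 6059), those missing with rapamycin alone in 48.8% (1449 of 2972), and those present in both in 8.58% (2986 of 34792). With no skipped number the 4 shares were 86.8%, 67.1%, 48.1% and 8.49%, so this order did not change.

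Of all control peaks, 2986 (5.72%) were missing from the combined list and from no other list. That is more than were missing from the knockdown-alone list alone (2314, 4.43%) or from the rapamycin-alone list alone (1523, 2.92%). Without skipped numbers the counts were 2557, 987 and 1299 of 40755 control peaks. The combined list is also the shortest of the 4, with 35.1 Mb covered against 39.9 Mb for the control list, 40.7 Mb for rapamycin alone and 38.3 Mb for knockdown alone.

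The 7899 gained peaks were spread in a similar way. Of them 3900 (49.4%) were in no other list, 1343 (17.0%) were also in the knockdown-alone list, 1157 (14.6%) also in the rapamycin-alone list, and 1499 in all 3 lists other than the untreated control. With no skipped number, the 4 counts were 2521, 1145, 664 and 1328 of 5658. Peaks gained with the combination and knockdown alone therefore outnumbered those gained with the combination and rapamycin alone in both counts. Among kept peaks of the combined list, 1544 were also in the knockdown-alone list only and 2318 in the rapamycin-alone list only. With no skipped number those counts were 1324 and 996, the same order as for gained peaks.

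Strength divided these classes. Lost peaks missing from all 3 other lists had a median rank of 45563 and a median width of 411 bp. Those present in both single-change lists had a median rank of 33492 and a median width of 545 bp. Within the stronger 50% of the control list 1539 of 26096 peaks were lost (5.90%), and 764 of those 1539 (49.6%) were present in both single-change lists. A further 440 (28.6%) were missing with knockdown alone, 124 (8.06%) with rapamycin alone and 211 (13.7%) with both. The share present in both was also higher among strong kept peaks. It was 96.9% of kept control peaks in the stronger 50%, against 86.3% of all kept control peaks. Of the 522 gained peaks in the stronger 50% of the combined list, 265 (50.8%) were in both single-change lists and 63 (12.1%) in no other list. Kept peaks of that stronger 50% were in both single-change lists in 97.8% of cases, against 86.2% of all kept peaks of the combined list. Of lost promoter peaks 252 of 908 (27.8%) were present in both single-change lists, and of lost distal peaks 2734 of 14430 (18.9%). Among kept control peaks the shares were 96.7% for promoter and 81.2% for distal peaks. Lost promoter peaks were not the stronger ones, with a median rank of 42922.5 against 41495.5 for lost distal peaks.

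**Figure D3:**
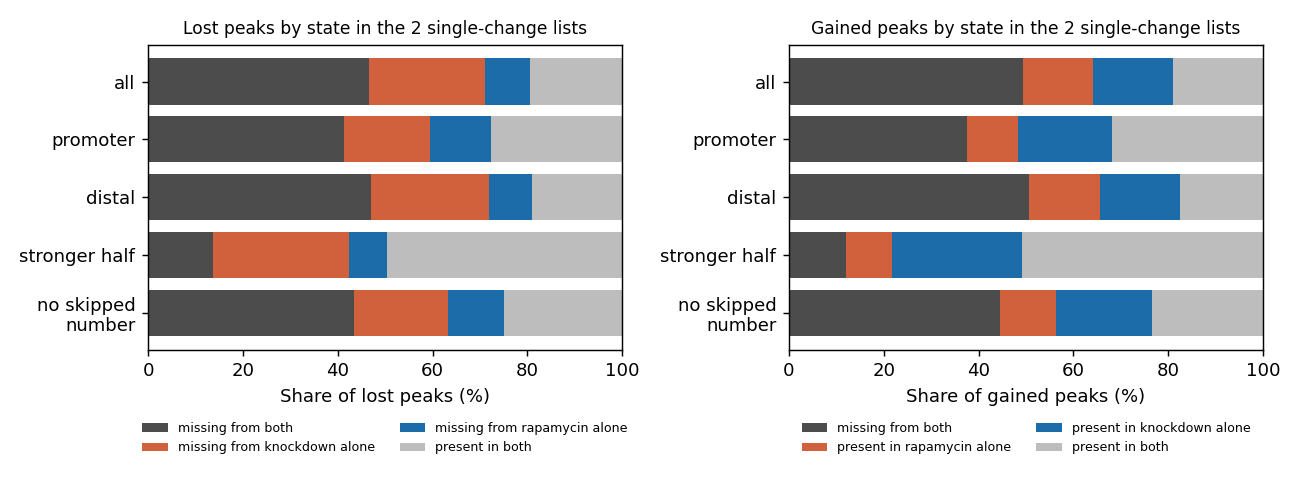
Lost peaks (left) and gained peaks (right) divided by whether the 2 single-change lists hold them, as shares of the lost or gained peaks (x axis, %), for all, promoter, distal, stronger-50% and no-skipped-number peaks (rows). Among all lost peaks 46.7% were missing from both lists and 19.5% present in both, and in the stronger 50% those shares were 13.7% and 49.6%. Kept control peaks, not drawn, were present in both in 86.3% of all cases and 96.9% in the stronger 50%.

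The best-ranked lost peaks of each class were examined by name. Among those missing from all other lists, the first were chr12:10017-10307, at the first assembled bases of chromosome 12 (nearest gene DDX11L8, rank 3316), and the ZNF286A promoter peak chr17:15699519-15699863 (rank 6439). The next was chr10:41879303-41879632, an intergenic stretch beside the centromere (nearest gene KSR1P1, rank 7140). Telomere and centromere repeats map poorly, and the other lists each had a peak 793 to 823 bp away at DDX11L8 and 3462 to 3501 bp away at KSR1P1. At ZNF286A the nearest peak of the other lists was 14942 to 15015 bp away.

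Among peaks missing from both shARID1A lists, the first was chr3:112097454-112097782 in intron 2 of C3orf52, with rank 6768 in the control and 15567 with rapamycin alone. The CENPB promoter peak chr20:3786733-3787315 followed, with rank 8693 in the control and 4093 with rapamycin alone. An intergenic peak at chr4:11505301-11506082, 36441 bp from AC025539.1, ranked 10890 and 18445. All 3 had their nearest shARID1A peak at least 4851 bp away, so no shifted peak replaced them.

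Peaks missing from both rapamycin lists were led by chr20:31610640-31610964, 3616 bp past the start of MIR3193, with rank 8039 in the control and 16810 with knockdown alone. It was followed by chr3:153848652-153849007 in intron 3 of LINC02006 (ranks 8274 and 11763) and chr2:158184765-158185240 in intron 12 of CCDC148 (ranks 9581 and 26312).

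Peaks missing from the combined list alone were next. The first, chr16:84096612-84096927, lies in intron 3 of MBTPS1, which encodes the protease that activates SREBP. It ranked 4748 in the untreated control, 3782 with rapamycin alone and 9901 with knockdown alone. The LLGL1 promoter peak chr17:18225083-18225561 ranked 5227, 10798 and 5815 in that order. The peak chr3:11302440-11302802, in intron 3 of the autophagy gene ATG7, ranked 5324, 7317 and 14036. The nearest peak in the combined list was 11357, 6741 and 12525 bp away. All 3 were narrow for their rank, at 316, 479 and 363 bp.

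Gained peaks of the same kind were led by 3 peaks at promoters, each found in every list but the untreated control. The SKI promoter peak chr1:2227619-2227966 had rank 4024 with rapamycin alone, 2792 with knockdown alone and 2470 with both. SKI encodes a repressor of SMAD signalling. The control had another, weak peak near the SKI start (chr1:2229370-2229727, rank 44898), 1404 bp from the gained one, so SKI does not count below as a gene that gained a promoter. The MLLT1 promoter peak chr19:6279968-6280324 ranked 7463, 9091 and 8849, with the nearest control peak 61041 bp away. The NSG2 promoter peak chr5:174045175-174045785 ranked 13120, 8336 and 9023. NSG2 encodes a neuronal vesicle protein.

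Gains shared with knockdown alone were led by chr20:31612888-31613293, 5904 bp past the start of MIR3193, with rank 6969 in the knockdown and 5451 in the combined list. The next were chr3:12706395-12706772, 32884 bp from CRIP1P1 (ranks 16075 and 10862), and chr13:106570476-106570769, 2458 bp before ARGLU1 (ranks 12315 and 10918). Gains shared with rapamycin alone, with ranks given for rapamycin alone and then for the combination, began at chr16:66608514-66608834 in intron 2 of CMTM3 (ranks 27405 and 13185). They went on with chr12:46072032-46072713, 67687 bp from AC084878.1 (30911 and 14542), and chr16:70109685-70109996, 4532 bp from PDPR (20898 and 14609). All 3 sit where the knockdown-alone list skips a number. Peaks found in the combined list alone began at chr10:69696118-69696506, 11413 bp from AL450311.1 (rank 13466). After it came chr17:37373398-37374130 in intron 1 of ACACA (rank 14949) and chr6:44151935-44152279 in intron 19 of TMEM63B (rank 15607). ACACA encodes acetyl-CoA carboxylase, the committing enzyme of fatty acid synthesis. The first of these 3 also sits at a skipped number of the knockdown-alone list.

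The stretch beyond ID1 on chromosome 20 thus held both a lost and a gained peak within 3 kb. ID1 is an inhibitor of helix-loop-helix factors and a target of BMP signalling, and its promoter peak was in all 4 lists, with rank 7489 in the untreated control, 2685 with rapamycin alone, 5307 with knockdown alone and 3589 with both. The peak starting at 31608381 in the control was in all 4 lists as well. The peak at MIR3193 itself (control chr20:31606911-31607446) was in every list but the combined one. The lost peak starting at 31610640 was in both DMSO lists, and the gained peak starting at 31612888 was in both shARID1A lists.

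At the level of genes, a promoter was counted open in a list when the list had a peak in any merged region that any list places within 1 kb of the gene's start. By this count 840 of 15501 genes lost their promoter peak (5.42%) and 684 of 15345 gained one (4.46%). Knockdown alone gave 709 losses (4.57%) and 781 gains (5.02%), and rapamycin alone 689 losses (4.44%) and 683 gains (4.41%). Of the 840 genes that lost a promoter peak with the combination, 254 kept it in both single-change lists and 321 in neither. Of the 684 gains, 242 were in both single-change lists and 235 in neither. With RefSeq starts in place of the deposited distances, an alternative added after the data were seen, 548 of 13880 genes lost and 462 of 13794 gained a promoter peak.

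In all, 20 gene lists were examined, 16 of pathways and 4 of other cell types' markers, and 317 of their 342 genes have a name in the files. Of 261 listed genes with an open promoter in the control, 7 lost it (2.68%), and of 259 open with the combination, 5 had gained it (1.93%). Both shares lie below the 5.42% and 4.46% over all genes. The listed promoters were not matched to all genes by peak rank. Of control promoter peaks, 0 of 3950 in the strongest score decile were lost, and 274 of 404 in the weakest. The part of peak rank in the lower shares, and in the lists without a change, was not tested. In 13 of the 20 lists no promoter changed. These were the Hippo pathway components (15 open of 15 in every list), mTOR complexes and regulators (22 of 25 genes open), SREBP and lipid synthesis, glycolysis and HIF, ATF4 and amino acid genes (12 of 12), lysosome and autophagy, ribosomal proteins (19 of 20), cell cycle (20 of 20), AP-1 and immediate early genes (16 of 18), TGF-beta, SMAD and ID (14 of 16), progenitor, biliary and oncofetal genes (11 of 16), and the endothelial and neuron markers. The mTOR list and the ribosomal genes, whose mRNAs are translated under mTORC1 control, therefore had the same open promoters with the combination as in the untreated control. Genes without a name in the files count as not open in these figures. When RefSeq starts were counted beside the deposited ones, mTOR genes were 25 of 25 open in all 4 lists. Ribosomal proteins were then 20 of 20 open, and TGF-beta, SMAD and ID genes 16 of 16. By that count MITF in the lysosome list lost a promoter peak and the neuron marker RBFOX3 gained one.

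The YAP and TEAD targets, genes that the Hippo pathway holds back, lost 2 promoters of 19 open. AXL, a receptor tyrosine kinase, ranked 44692 in the control and 45195 with knockdown alone, and had no peak with rapamycin alone or with both. The lost AXL peak lay at chr19:41225692-41226415. The window before another RefSeq start of AXL, chr19:41218973-41219222, had no peak in any of the 4 lists. FOXF2, a mesenchymal forkhead factor, ranked 49988 in the control and had no peak elsewhere. Both were weak. The standard reporters of the pathway kept their promoters: CCN1 ranked 8940 in the untreated control, 15201 with rapamycin alone, 8972 with knockdown alone and 6905 with both, and ANKRD1 5080, 8180, 4918 and 3207. CCN2 had no peak within 1 kb of its deposited start, but its RefSeq start lay under a peak in all 4 lists, and its 4 distal regions of the control were all kept.

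Among hepatocyte transcription factors, NR1H4, which encodes the bile acid receptor FXR, lost its promoter peak (chr12:100503257-100503704). It ranked 38349 in the control and 46238 with rapamycin alone, and was missing from both shARID1A lists. NR1I2, which encodes the xenobiotic receptor PXR, went the other way, with no peak in the shControl lists and ranks of 38602 with knockdown alone and 34824 with both. Among plasma proteins and hepatocyte enzymes, the transthyretin gene TTR gained a promoter peak, chr18:31591413-31591883, that ranked 24252 and was in no other list. The apolipoprotein gene APOA2 gained one in all lists but the untreated control, with ranks of 24980 with rapamycin alone, 34633 with knockdown alone and 29796 with both. HP, which encodes the haemoglobin scavenger haptoglobin, lost one that ranked 46332 in the control alone.

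In the list on epithelial-mesenchymal transition, 13 of 17 genes were open in the control and 13 with the combination. The only changes were a gain at CDH1 and a loss at TWIST1. With RefSeq starts counted too, CDH2, VIM, FN1, SNAI1, SNAI2, ZEB1, ZEB2, KRT8 and KRT18 had a promoter peak in all 4 lists. CDH1 encodes E-cadherin, the adhesion protein of epithelia, and TWIST1 a repressor of it. CDH1 had no promoter peak in the shControl lists and ranked 37838 with knockdown alone and 28662 with both. TWIST1 ranked 42189 in the control, at chr7:19116542-19116867, and had no peak in the shARID1A lists. Its peak with rapamycin alone (rank 46490, chr7:19117263-19117671) shared no base with that of the control. In the SWI/SNF list, SMARCD3 gained a peak at 1 of its starts, with ranks of 37443, 28503 and 37604, while its start at chr7:151248695-151248944 lay under a peak in all 4 lists. The ARID1A promoter itself had a peak in all 4 lists, with ranks of 7601, 9049, 8075 and 8003. A promoter peak does not measure the knockdown.

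**Figure D4:**
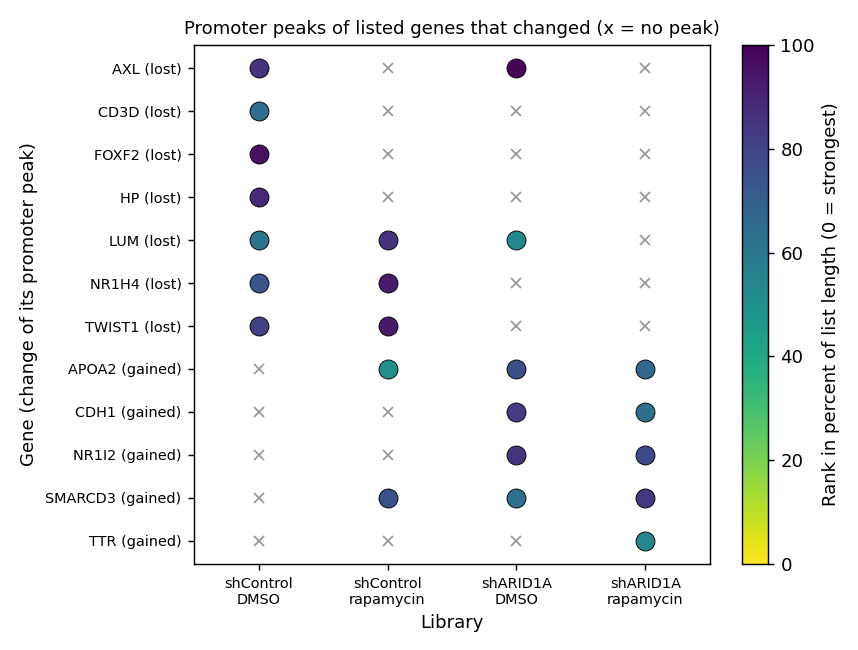
Promoter peaks of the 12 listed genes whose promoter was lost or gained (rows) in the 4 libraries (columns). Circles mark a peak, coloured by rank as a percentage of the list's length, and crosses mark no peak. TTR has a peak with the combination alone, and CDH1 and NR1I2 in both shARID1A libraries.

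Markers of other cell types were examined in the same way. Of 10 stellate cell and fibroblast markers 4 were open in the control and 3 with the combination. LUM, which encodes the matrix protein lumican, ranked 32162 in the control and was missing from the combined list alone. Of 12 leukocyte markers 4 and 3 were open, with CD3D (rank 33294 in the control) lost and CD14, CD68 and LYZ open in all 4 lists. The window before a RefSeq start of CD3D, chr11:118342706-118342955, had no peak in any of the 4 lists. Of 10 endothelial markers 1 was open in the control and in the combined list, and of 10 neuron markers 3 and 3. With RefSeq starts counted too, the stellate and fibroblast markers ACTA2, COL1A1, COL1A2 and RGS5 and the neuron markers SNAP25, MAP2, TUBB3 and GAD1 had a promoter peak in all 4 lists. COL3A1, DCN, PDGFRB, LRAT and DES, the neuron markers STMN2, SYN1, NEFL, DCX and SLC17A6, the leukocyte markers PTPRC, CD3E, MS4A1, ITGAM, NKG7, SPI1 and C1QA, and every endothelial marker but LYVE1 had none in any list.

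Distal regions were counted for each gene as the merged regions over 1 kb from a start that any list assigns to it. Over the whole genome 14118 of 37219 such regions with a control peak were lost (37.9%) and 6893 of 29994 with a combined-list peak were gained (23.0%). Of 23300 nearest genes, 9135 had fewer distal regions with the combination than in the control, 4020 had more and 10145 as many. Among the listed genes 136 of 426 regions were lost (31.9%) and 55 of 345 gained (15.9%). In 17 of the 20 lists the combined library had fewer distal regions than the control.

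YAP and TEAD targets had 55 distal regions in the untreated control, 54 with rapamycin alone, 45 with knockdown alone and 34 with both. Of the 55, 26 were lost (47.3%, 33.7 to 61.2%), where the losses of all distal regions of the same score deciles give 20.9. Genes singled out after their values were seen were NT5E, an ecto-nucleotidase (3, 2, 1 and 0 regions in the same order), GADD45A, a stress-response gene (4, 4, 3 and 1), and CRIM1 (5, 5, 3 and 2). The gains were 5 of 34 regions (14.7%). The genome-wide 37.9% lies within the interval of the loss.

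Progenitor, biliary and oncofetal genes had 38, 27, 31 and 23 distal regions, and 18 of 38 were lost (47.4%, 31.0 to 64.2%; 16.8 at the decile rates). AFP, the fetal counterpart of albumin and a marker of liver cancer, went from 7 regions in the control to 4 with rapamycin alone, 5 with knockdown alone and 3 with both. Its strongest region, chr4:73431924-73433696 in the control and upstream of the start, was in all 4 lists with ranks of 4320, 2543, 5527 and 7591. The 4 lost regions were weak, with control ranks between 30744 and 48283, and lay within the gene or at its end. ALB next to it had 3 regions in the control and 2 with the combination.

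Plasma protein and hepatocyte enzyme genes kept more, with 7 of 40 distal regions lost (17.5%, 7.34 to 32.8%), against 12.5 at the decile rates. The interval lies below the genome-wide 37.9%, but it includes the share at the decile rates. LIPC, which encodes hepatic lipase, had 8, 7, 5 and 7 regions, and APOB 4, 3, 2 and 3. TGF-beta, SMAD and ID genes lost 8 of 37 (21.6%, 9.83 to 38.2%), and SKI gained 2 regions. The other pathway lists with 20 or more control regions lost between 20.0% and 37.5%: mTOR regulators 4 of 20, AP-1 genes 4 of 20, EMT genes 5 of 24, hepatocyte factors 9 of 30, glycolysis and HIF 7 of 23, lipid synthesis 8 of 23, SWI/SNF 7 of 20 and Hippo components 9 of 24. The lists with fewer were ATF4 genes with 4 of 13, cell cycle with 6 of 12, lysosome and autophagy with 1 of 8 and ribosomal proteins with 2 of 8. Lysosome and autophagy genes were the list with more distal regions in the combined library than in the control, 11 against 8. Single genes outside the rule, chosen after their values were seen, were SMARCA4, the ATPase of the complex that holds ARID1A (3, 1, 0 and 0 regions), and CDK1, the mitotic kinase (3, 1, 0 and 0). The marker lists lost 4 of 9 regions (endothelial), 2 of 5 (leukocyte), 4 of 8 (stellate and fibroblast) and 4 of 14 (neuron).

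Some genes lost many distal regions at once. TRIO had 19 distal regions in the control, 19 with rapamycin alone, 13 with knockdown alone and 10 with both. Of the 19, 10 were lost, over chr5:14105716-14267641. PARD3, a polarity gene, had 15, 9, 10 and 7 regions and lost 9 over chr10:34184852-34446289. FOXP1-AS1, an antisense transcript of FOXP1, had 16, 11, 10 and 9 and lost 9, and the noncoding gene AC073873.1 had 15, 13, 16 and 11 and lost 9 while gaining 5. By the deposited annotation, the regions lost at FOXP1-AS1 lie within FOXP1, and most of those lost at AC073873.1 lie within AUTS2. Some lists name FOXP1 or AUTS2 as the nearest gene there. Of the 10 regions lost at TRIO, 7 were also missing with knockdown alone and 5 with rapamycin alone, and of the 9 at PARD3, 6 and 7. Rapamycin alone had as many TRIO regions as the control because other regions were added. For gains, DCDC1, a doublecortin-family gene, had 2, 3, 2 and 8 regions, with 6 gained over chr11:30854918-31107263. AL357936.1 had 3, 4, 7 and 8 with 5 gained, most of them in intron 1 of DAB2IP. PPP2R2C, a regulatory subunit gene of protein phosphatase 2A, had 8, 5, 10 and 10 with 5 gained and 3 lost. The other names with as many changed regions, 4 for losses and 5 for gains, are RNA family names that stand for several loci.

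The promoter table allowed the sequence of lost and kept promoters to be compared in 34789 RefSeq windows of 300 bases. A window was classed by the peaks on it: 15070 had peaks of both lists, 472 a lost peak, 404 a gained peak and 18306 none. The other 537 were reached by the edge of a kept peak in 1 list and were set aside. Lost windows had a median of 8 CpGs (quartiles 3 to 23), kept windows 27 (19 to 34), gained windows 16.5 (6 to 31) and windows without a peak 4 (2 to 10). Lost promoters were therefore mostly CpG-poor, like NR1H4 above, although strong ones such as LLGL1 and CENPB were CpG-rich. Kept peaks are stronger, so windows under the weaker 50% of control peaks were compared as well. There the medians were 8 CpGs for 416 lost and 21 for 1404 kept windows. For gains in the weaker 50% of the combined list the medians were 15 for gained and 20 for kept windows.

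CpG content also differed with the single-change state. Lost windows without a peak in the knockdown-alone list had a median of 5 CpGs (n = 269, or 6 with n = 178 where no number is skipped). Lost windows with one had a median of 18 (n = 203). For rapamycin alone the medians were 7 without a peak (n = 231) and 9 with one (n = 241). The gap in medians was wider for the knockdown-alone list than for the rapamycin-alone list. The windows were not matched by peak rank. Lost promoter peaks missing from both single-change lists had a median rank of 46401, and those present in both 36994.5. The part of peak rank in these gaps was not tested. Windows gained along with knockdown alone had a median of 24 CpGs (n = 219), and those gained without it 11 (n = 185). For rapamycin alone the direction was the same, with medians of 22 (n = 182) and 14 (n = 222).

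**Figure D5:**
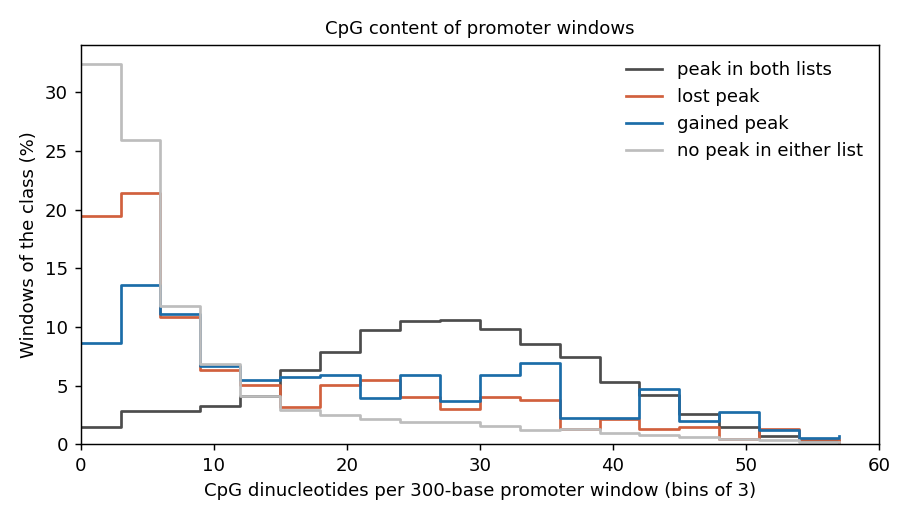
CpG dinucleotides per 300-base promoter window (x axis, bins of 3) against the share of windows of each class (y axis, %), for windows with a peak in both lists, a lost peak, a gained peak or no peak. Lost windows gather at the low end with a median of 8, and kept windows around a median of 27. Windows over 60 CpGs are not drawn.

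The AP-1 letters TGANTCA stood in 14.2% of lost windows (67 of 472, 11.2 to 17.7%), 4.52% of kept windows (4.19 to 4.86%), 8.42% of gained windows, 10.1% of windows without a peak and 7.69% of all windows. In the weaker 50% of the control list the shares were 13.2% of lost and 6.62% of kept windows. In the weaker 50% of the combined list they were 8.54% of gained and 8.42% of kept windows, nearly the same. Lost windows also held fewer CpGs than kept ones, and the part of base composition in the difference between lost and kept windows was not tested. The letters GGAATG, which TEAD factors bind, searched on both strands, stood in 13.1% of lost windows (10.2 to 16.5%), 1655 of 15070 kept windows (10.5 to 11.5%), 11.1% of gained and 14.1% of all windows, so lost and kept windows overlapped in that share. A motif here is a match of letters in the window, not a bound site.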

How the data were processed

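ATAC-seq libraries from 4 groups of Huh7 cells, 1 library each, were compared as peak lists. Per the submitters' processing notes, the tools were BWA and MACS2 2.0 and the build GRCh38. The deposited lists give each peak's position, a score, an annotation and a distance to a TSS. What the deposited score measures is not stated, and it served only to rank peaks within a list. Start and end were read as 1-based and inclusive. No counts were used, so read depth is unknown.

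Peaks were lost or gained where lists shared no base (1 bp overlap counts as shared). Peaks that overlap across lists were joined into regions. The deposited nearest gene was the same in 91.0% of 35591 regions with 1 control and 1 combined-list peak, and the promoter class in 95.5%, so genes were assigned by region. Promoter sequences came from RefSeq (GRCh38.p14), a table that does not hold every gene. The overlap step was tested on simulated lists. Computations ran in Python 3.11.15 with SciPy 1.17.1, NumPy 2.4.6 and pandas 2.3.3.

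Members and gene lists were chosen with earlier results of these data known. Named peaks are the 3 best-ranked on chromosomes 1 to 22 and X in each single-change class. Named genes are the listed genes with a changed promoter, the 5 genes with the most changed distal regions with ties, and ARID1A, CCN1, CCN2, ANKRD1, ALB and AFP. Of the listed genes, 4 matched by an older symbol. Alternatives covered the overlap rule, list length, score, chromosomes, promoter width, skipped peak numbers and, added after the data were seen, RefSeq starts.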

Additional observations from a re-analysis of the deposited data

How the results depend on the processing

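Of 84 alternative values of 14 counts, 59 stayed within 1.5 times the main count and 25 did not; an overlap of 50% of the shorter peak, a 500 bp gap and chromosomes 1 to 22 and X moved none that far. In the stronger 50% of each tested list there were 1539 lost peaks (72 promoter, 1467 distal) and 522 gained (65 and 457). Of those lost, 764 were missing from the combined list alone, 440 with knockdown alone too, 124 with rapamycin alone too and 211 with both. Of those gained, 63 were in the combined list alone and 265 in both single-change lists. Genes losing a promoter peak numbered 64 and genes gaining one 57. With 44760 top-ranked peaks from every list, 9629 peaks were lost (533 promoter, 9096 distal), 2426 of them with knockdown alone too and 3762 with both, and 505 genes lost a promoter peak. Without skipped numbers the counts were 2009 lost with knockdown alone too, 4449 lost with both and 2521 gained in the combined list alone. A promoter width of 2 kb gave 1462 lost promoter peaks, and RefSeq starts, added after the data were seen, 548 genes losing one. These settings test fewer peaks or another set of starts by construction. No paired analysis was possible because each group is 1 library and the labels carry no replicate numbers. With no depth or counts in the lists, a weak peak below a list's threshold cannot be told apart from closed chromatin.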
